A study of Homo sapiens with 9 samples.

Results

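HEK293 Freestyle cells kept for 36 h in medium stripped of Zn(II) (depleted) were compared with cells kept equally long in stripped medium to which Zn(II) had been returned (repleted). Because both media went through the depletion step, this pairing addresses Zn(II) itself apart from anything else that the step takes out of the medium. It uses 6 of the 9 libraries of the series, 3 per group. The 3 libraries from untreated medium (full) entered the shared estimate of spread and stand beside the values as a reference. The genes described were all those that reached 1 RPKM in 3 or more of the 9 libraries, which gave 15774 of 57766 genes, or 27.3%. RPKM are reads divided by the length of the gene and by the size of the library. At the edge of that rule, 42 genes had a third-highest value of 1.00 RPKM and entered, and 30 genes had one of 0.99 RPKM and did not.

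HEK293 is an established line from human embryonic kidney, and the Freestyle derivative grows in suspension. All groups shared the steps before plating. Cells were held in untreated medium for 18 h or longer, at 1000000 cells/mL, then were rinsed 3 times in PBS, brought to 4000000 cells/mL in PBS and plated. A rinse with EDTA, a metal chelator, and PBS is also described, in wording that does not settle what was rinsed. How zinc was removed, and how much was returned, is not given in the sources used here. The labels call the libraries biological triplicates of 1 cell line, and nothing says whether they were separate cultures over time, so p-values measure the spread between these samples.

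Cells hold zinc tightly bound, and the transcription factor MTF1 reports its supply: when free zinc rises, MTF1 binds metal response elements upstream of the metallothioneins, whose many cysteines hold zinc and copper ions, and of the exporter gene SLC30A1. The SLC30 family (ZnT) moves zinc out of the cytosol, and the SLC39 family (ZIP) brings it in. Many enzymes and DNA-binding proteins need zinc for their fold or their chemistry.

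Of the 15774 genes, 9574 (60.7%) passed the limma test at an adjusted p of 0.05. In the depleted cells 4654 genes were higher (29.5%) and 4920 were lower (31.2%). Both shares are the background for every count of list members below, and they cover genes of all classes and levels. Of protein-coding genes 66.3% were called, and of genes at 10 to 50 RPKM 69.5%. Lists of well-expressed protein-coding genes are therefore not matched to this background. The lists were also chosen with earlier results of these data known, so their counts are descriptions. Most of these differences were small: the median log2 change of the higher genes was 0.48 and that of the lower genes -0.60. A called change of at least 2-fold was seen for 513 higher genes (3.25%) and 1029 lower genes (6.52%). At 4-fold or more there were 59 higher and 118 lower genes, and at 8-fold or more 5 and 13. The 3 depleted libraries all lay above the 3 repleted ones for 31.7% of the genes and below them for 33.4%, so that 65.2% did not overlap. Changes are differences of log2(RPKM + 1), which understate the RPKM fold of genes that are low in either group. Fold counts here and below use that scale. TMEM109, with a ratio of mean RPKM of 9.28, thus fell short of 8-fold at a log2 change of -2.98. For this reason ratios of mean RPKM are given beside some changes. The median change of all tested genes was -0.01. With fewer copies in bulk RNA, fewer cells making a transcript and less RNA per cell cannot be told apart.

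**Figure D1:**
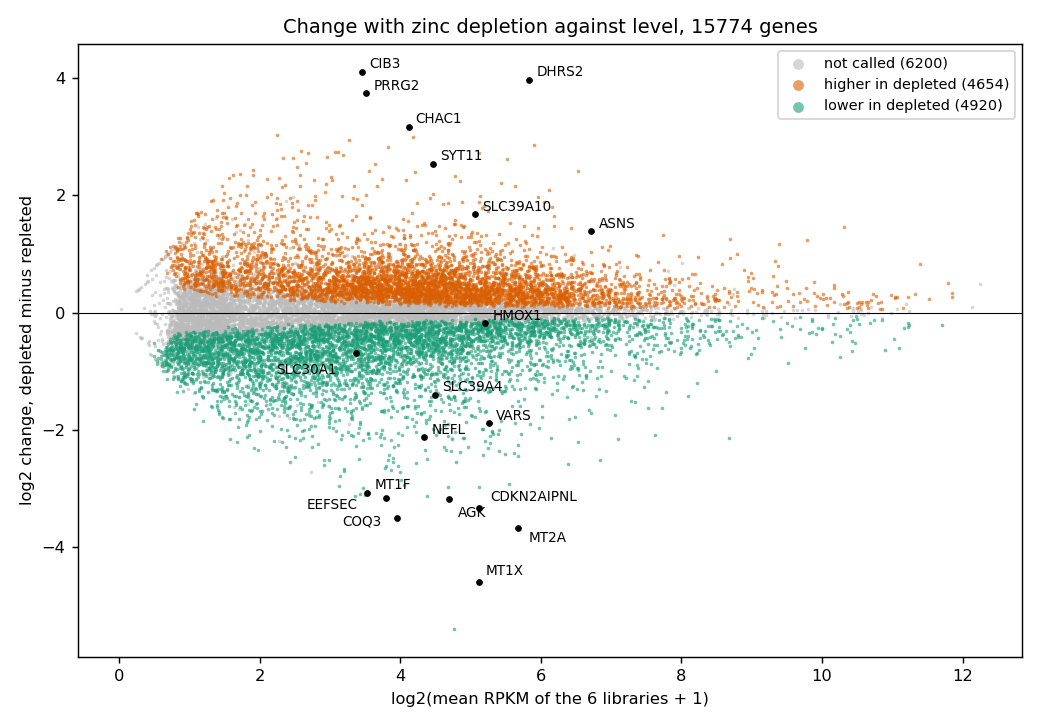
Log2 change of each tested gene, depleted minus repleted (y axis), against the log2 of its mean RPKM plus 1 over the 6 libraries (x axis). Each point is a gene, coloured by whether it was called higher (4654), lower (4920) or not called; the metallothioneins MT1X and MT2A lie near the lower edge, where the lowest point is the clone-named gene RP11-138I1.4, and CIB3, DHRS2 and PRRG2 at the upper edge.

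The libraries held an estimated 16900000 to 21900000 reads in the 2 groups, judged from the spacing of low values. Each had 14695 to 15249 of all 57766 genes, tested or not, at 1 RPKM or more. Pearson correlations over genes were 0.986 to 0.987 among depleted libraries, 0.983 to 0.984 among repleted ones, and 0.937 to 0.941 between the groups. On the first principal component, 65.7% of the variance, the depleted libraries lay at 52.5 to 53.6 and all others at -27.5 to -25.8. On the second component, 6.49% of the variance, values rose with replicate number within each group, and why was not tested. Full libraries lay at 6.80 to 15.4 and depleted ones at -8.14 to 6.82. Repleted libraries 1 and 2 lay at -19.1 and -19.0, while repleted library 3 lay at 6.70, near the lowest full and the highest depleted value. With library 3 left out 9087 genes were called, and with it as the only repleted library 7730, where the lone library is assumed to vary as the other groups do, so that fewer calls also come from fewer samples. All 8 HEK293 markers were detected, 2 higher and 6 lower in depleted cells, with a median log2 change of -0.46. VIM stood at 665 ± 11.3 RPKM in depleted and 585 ± 4.67 RPKM in repleted cells (mean ± SD of 3 libraries, here and below). KRT8 stood at 90.4 ± 0.235 against 124 ± 4.88 RPKM, and NEFL at 6.53 ± 0.376 against 31.9 ± 0.199 RPKM. PAX2 fell from 3.02 ± 0.187 to 0.60 ± 0.205 RPKM, under 1 RPKM in every depleted library. Of 22 markers of other cell types in the table, 16 stayed under 1 RPKM in all 6 libraries, 4 of them (TYR, KRT5, HBB and INS) at 0, and their summed level was 11.0 to 15.5 RPKM in depleted and 11.5 to 13.5 RPKM in repleted libraries. Of the 5 that were tested, the fibroblast marker LUM fell from 6.38 ± 0.757 to 3.50 ± 0.352 RPKM (limma adjusted p = 0.000394) and HBA1 rose from 1.39 ± 0.47 to 4.15 ± 0.586 RPKM (limma adjusted p = 0.00136).

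The promoters of the genes that open the account are shown first, since the letters that MTF1 reads can be seen in them. Each line gives the 250 bases before a start site as RefSeq places it on GRCh38.p14, 5′ to 3′ on the gene's strand, while the expression values were made on the older build hg19. Capitals mark matches to the metal response element, searched as TGCACNC or TGCGCNC on both strands. MT2A and MT1X lie on the plus strand at chr16:56608334-56608583 and chr16:56682220-56682469, and SLC30A1 on the minus strand at chr1:211579162-211579411. The entry for MT1F was not in the table.

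MT2A: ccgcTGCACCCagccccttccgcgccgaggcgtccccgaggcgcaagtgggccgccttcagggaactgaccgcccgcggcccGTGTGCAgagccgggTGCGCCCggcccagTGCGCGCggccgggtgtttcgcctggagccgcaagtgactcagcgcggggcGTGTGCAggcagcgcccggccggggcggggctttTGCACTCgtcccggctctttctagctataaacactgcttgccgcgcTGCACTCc
MT1X: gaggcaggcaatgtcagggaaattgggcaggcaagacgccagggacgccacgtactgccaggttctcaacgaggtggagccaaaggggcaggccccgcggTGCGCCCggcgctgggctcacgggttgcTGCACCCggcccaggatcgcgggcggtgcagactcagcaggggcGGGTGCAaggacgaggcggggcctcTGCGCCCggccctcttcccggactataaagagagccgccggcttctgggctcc
SLC30A1: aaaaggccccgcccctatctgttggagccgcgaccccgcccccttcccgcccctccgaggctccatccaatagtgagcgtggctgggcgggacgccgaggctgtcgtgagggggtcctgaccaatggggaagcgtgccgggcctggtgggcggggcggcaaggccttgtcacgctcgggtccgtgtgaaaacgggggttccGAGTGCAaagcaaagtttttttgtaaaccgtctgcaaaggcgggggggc

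MT2A held 7 matches, MT1X held 4 and SLC30A1 held 1. Over the 27305 genes with a promoter in the table, 24.7% held at least 1 match and 1.56% held 3 or more. Among the 9964 tested genes that could be matched, 33.9% held at least 1 and 2.34% held 3 or more. The share with 3 or more was 2.85% of the 667 matched genes called lower by at least 2-fold. It was 0.741% (2 genes) of the 270 called higher by at least 2-fold, and 2.19% of the 3288 not called. At least 1 match was held by 34.6% of the lower, 26.3% of the higher and 33.8% of the uncalled genes. A match is a run of letters and no measure of binding, and no match shown here overlaps another.

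The metallothioneins were the deepest fall among the zinc families: all 3 that were tested fell, by a median log2 change of -3.67, where 31.2% of all tested genes were called lower. The other 10 genes of the family never passed 0.21 RPKM in any of the 9 libraries. MT2A measured 6.57, 5.72 and 7.08 RPKM in the depleted libraries and 93.6, 90.1 and 96.7 RPKM in the repleted ones. The groups lay far apart, with every depleted library below 8 RPKM and every repleted one above 90 RPKM. The log2 change was -3.67 ± 0.067 (SE; limma adjusted p = 1.28e-09), a ratio of means of 14.5. MT1X read 1.71, 2.48 and 1.16 RPKM without zinc and 70.4, 70.0 and 56.4 RPKM with it restored, a log2 change of -4.60 ± 0.16 (SE; limma adjusted p = 2.39e-08) and a ratio of 36.8. Repleted library 3 was the lowest of its group and still far above every depleted library. MT1F stood at 1.23, 1.86 and 1.24 RPKM against 20.5, 15.3 and 23.3 RPKM, a log2 change of -3.07 ± 0.15 (SE; limma adjusted p = 1.58e-07). Metallothionein genes are near-identical copies, so the split of reads among them is uncertain.

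MT2A was lower after zinc was returned than in untreated medium. MT2A averaged 93.5 ± 3.34 RPKM in repleted and 191 ± 8.90 RPKM in full libraries, and its repleted minus full change was -1.02 (limma adjusted p = 0.00114). MT1F showed 19.7 ± 4.07 against 46.8 ± 1.85 RPKM, a change of -1.23 (limma adjusted p = 0.0382), a call that was lost whichever single library was left out and with the replicate block. For MT1X the means were 65.6 ± 7.99 and 151 ± 12.2 RPKM, and the change of -1.2 did not pass (limma adjusted p = 0.0596), though it did with the replicate block, under median centring and without depleted library 2 or 3. Across all tested genes only 5 (0.0317%) differed between repleted and full medium by this test, MT2A, MT1F, HMOX1, FTL and the pseudogene RP3-365I19.2, with 1224 at an unadjusted p below 0.05. With 1 of the 9 libraries left out at a time that count was 1 to 9, reached without full library 1. MT2A was called each time, while FTL and HMOX1 were lost in most of these fits. Depleted against full medium called 60.9% of the genes. These comparisons share libraries with the main one.

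Among the 9 ZnT exporters tested, 3 fell and 2 rose, beside 31.2% and 29.5% of all genes. The 4 others did not pass, and the median log2 change was -0.02. SLC30A1, the plasma membrane exporter, read 7.14, 6.62 and 7.04 RPKM in depleted and 11.2, 11.6 and 12.4 RPKM in repleted libraries. Its groups did not overlap, and the log2 change was -0.68 ± 0.060 (SE; limma adjusted p = 8.82e-06); its mean in full medium was higher again, at 16.4 ± 0.369 RPKM, with a repleted minus full change of -0.45 that did not pass (limma adjusted p = 0.0596). SLC30A2, which fills zinc vesicles, was nearly silent without zinc at 0.06, 0.17 and 0.04 RPKM and stood at 0.92, 0.98 and 1.2 RPKM with it, a log2 change of -0.90 ± 0.15 (SE; limma adjusted p = 0.000486). SLC30A3, the synaptic vesicle transporter, fell from 3.83 ± 0.643 to 2.05 ± 0.439 RPKM (limma adjusted p = 0.00322), and with repleted library 3 alone the log2 change was -0.44 (adjusted p = 0.107). The Golgi and secretory pathway transporters SLC30A6 and SLC30A7 rose, from 12.1 ± 0.205 to 17.4 ± 1.96 RPKM (limma adjusted p = 0.000527) and from 6.08 ± 1.08 to 9.75 ± 0.313 RPKM (limma adjusted p = 0.000805). The 4 others had log2 changes of -0.17 for SLC30A10, -0.02 for SLC30A9, 0.03 for SLC30A5 and 0.14 for SLC30A4.

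Of 11 ZIP importers tested, 6 rose, 2 fell and 3 did not pass, with a median log2 change of 0.25. Over all genes 29.5% were higher and 31.2% lower. SLC39A10, a plasma membrane importer, read 50.3, 48.5 and 50.9 RPKM in depleted libraries and 14.8, 15.4 and 14.6 RPKM in repleted ones. This was the largest rise in the family, a log2 change of 1.68 ± 0.047 (SE; limma adjusted p = 7.48e-09) and a ratio of 3.35. SLC39A7, a ZIP of the endoplasmic reticulum membrane that lets zinc out into the cytosol, stood at 86.4, 85.9 and 83.0 against 54.1, 55.8 and 52.2 RPKM, a log2 change of 0.65 ± 0.040 (SE; limma adjusted p = 8.34e-07). Smaller rises were measured for SLC39A9 (0.51 on the log2 scale), SLC39A3 (0.42), SLC39A1 (0.31) and SLC39A6 (0.25), each with all 3 depleted libraries above all 3 repleted ones. SLC39A4, the importer that takes up dietary zinc in the gut, fell from 33.8, 31.1 and 30.0 RPKM to 12.4, 10.6 and 11.1 RPKM, a log2 change of -1.40 ± 0.073 (SE; limma adjusted p = 2.72e-07). SLC39A11 also fell, from 10.4 ± 0.156 to 6.63 ± 0.655 RPKM (limma adjusted p = 0.000258). SLC39A8, SLC39A14 and SLC39A13 did not pass, at log2 changes of 0.17, 0.13 and 0.06. Without repleted library 3, SLC39A8 passed at a log2 change of 0.27 (limma adjusted p = 0.0020).

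The list of zinc sensing and chaperoning genes had 4 higher and 4 lower of 10 tested, beside 29.5% and 31.2% of all genes. Its median was 0.07. MTF1 itself rose from 3.46, 3.78 and 3.53 RPKM to 6.87, 6.06 and 5.09 RPKM, a log2 change of 0.60 ± 0.11 (SE; limma adjusted p = 0.0013). CBWD genes encode the zinc chaperones that hand zinc to methionine aminopeptidase. CBWD1 rose from 38.3 ± 3.65 to 58.5 ± 1.56 RPKM (limma adjusted p = 0.00012) and CBWD2 from 36.7 ± 0.93 to 56.9 ± 2.53 RPKM (limma adjusted p = 1.3e-05). CBWD5 rose by 0.83 on the log2 scale, but repleted library 3 read 19.2 RPKM against 9.31 and 10.2 RPKM in the others, and with library 3 alone the change was 0.23 (adjusted p = 0.0627). CBWD3 and CBWD6 did not pass, at -0.22 and 0.36, although CBWD6 passed under median centring (adjusted p = 0.0459) and without repleted library 1 (0.0208); these copies are so alike that reads can be split among them in error. METAP1, the aminopeptidase that these chaperones serve, fell from 33.1 ± 1.2 to 26.3 ± 0.335 RPKM (limma adjusted p = 0.000128), and METAP2 fell from 118 ± 5.85 to 70.8 ± 2.52 RPKM (limma adjusted p = 1.13e-06). TMEM163, a zinc transporter of vesicles, and ZNF658, a zinc-responsive repressor, were the other genes that fell, with log2 changes of -0.73 and -0.51, and with repleted library 3 alone the changes were -0.45 and -0.52 (adjusted p = 0.0878 and 0.0704). CBWD3, CBWD5, CBWD6, TMEM163 and ZNF658 were chosen after their values were seen.

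**Figure D2:**
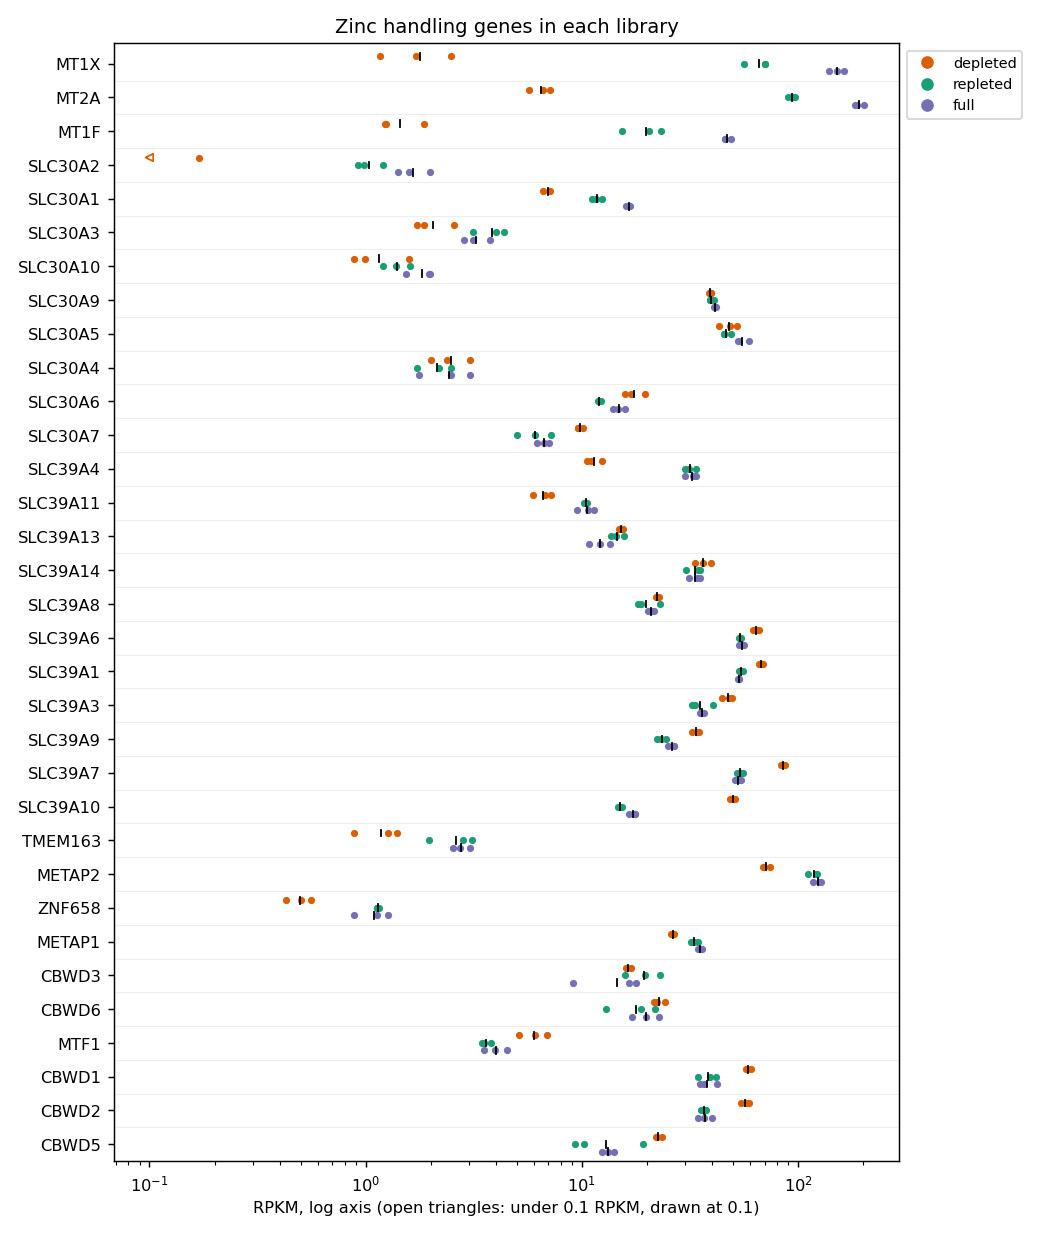
RPKM on a log axis for each tested metallothionein, ZnT exporter, ZIP importer and zinc sensing or chaperoning gene; each point is 1 library, coloured by medium, black ticks are group means and open triangles are values under 0.1 RPKM. MT2A lies between 5.72 and 7.08 RPKM in depleted, between 90.1 and 96.7 in repleted and between 184 and 201 in full libraries, while SLC39A10 lies highest in the depleted ones.

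Genes for enzymes that bind zinc fell more often than they rose, 23 lower and 13 higher of 45 tested, where 31.2% of all genes were lower and 29.5% higher, with a median log2 change of -0.25. HDAC8, a zinc-dependent histone deacetylase, fell most in the list, from 21.5, 23.9 and 23.2 RPKM to 3.43, 2.67 and 2.32 RPKM, a log2 change of -2.66 ± 0.11 (SE; limma adjusted p = 7.01e-08). HDAC3 fell from 87.4 ± 6.59 to 59.5 ± 0.664 RPKM (limma adjusted p = 1.66e-05) and HDAC6 rose from 26.5 ± 2.72 to 46.6 ± 4.31 RPKM (limma adjusted p = 2.42e-05). The carbonic anhydrases CA11 and CA12 fell, CA11 from 9.53 ± 0.469 to 1.80 ± 0.576 RPKM and CA12 from 3.13 ± 0.108 to 0.67 ± 0.166 RPKM. Among peptidases, the membrane metalloproteinase MMP15 changed by -1.82 ± 0.088 (SE; limma adjusted p = 1.78e-07), the leukotriene hydrolase LTA4H by -0.91 ± 0.038 (SE; limma adjusted p = 7.2e-08) and the oligopeptidase THOP1 by -1.05 ± 0.069 (SE; limma adjusted p = 1.24e-06). SORD, sorbitol dehydrogenase, fell from 23.3, 23.2 and 25.1 RPKM to 11.0, 11.0 and 10.4 RPKM, with a log2 change of -1.08 ± 0.058 (SE; limma adjusted p = 3.48e-07). LIAS was the single member to rise by at least 2-fold, from 8.49 ± 0.28 to 22.6 ± 1.62 RPKM (limma adjusted p = 6.06e-07). LIAS, which makes lipoic acid with iron-sulphur clusters, and PGM5, a phosphoglucomutase relative (log2 change -0.95, limma adjusted p = 0.0013), sit in this list although neither is known for zinc chemistry. HDAC3, HDAC6, CA11, CA12, THOP1 and PGM5 were chosen after their values were seen.

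Of 436 ZNF genes, which encode proteins with zinc fingers, 252 were called (57.8%, against 60.7% of all genes), 129 of them higher, with a median of 0.03. Falls of 2-fold or more outnumbered such rises, 28 against 11, as they did over all tested genes, where 6.52% fell and 3.25% rose by as much. ZNF580 stood at 11.7, 12.1 and 12.7 RPKM in depleted and 50.8, 46.2 and 43.4 RPKM in repleted libraries, a log2 change of -1.86 ± 0.076 (SE; limma adjusted p = 6.6e-08). ZNF358, ZNF768 and ZNF581 also fell, with log2 changes of -1.69, -1.36 and -1.23. ZNF511 was the one member of the 5 with the smallest p that rose, from 60.1 ± 3.16 to 113 ± 3.84 RPKM (limma adjusted p = 1.75e-07).

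The largest falls outside the zinc families took genes from well-expressed levels to a few RPKM. COQ3, a methyltransferase of coenzyme Q synthesis, read 1.72, 1.36 and 1.39 RPKM without zinc and 28.7, 29.2 and 24.3 RPKM with it. Every depleted library lay under 2 RPKM, and the log2 change was -3.51 ± 0.10 (SE; limma adjusted p = 1.02e-08), a ratio of 18.4. CDKN2AIPNL measured 5.51, 5.15 and 5.25 RPKM against 62.9, 59.9 and 65.1 RPKM, a log2 change of -3.33 ± 0.055 (SE; limma adjusted p = 7.94e-10). AGK, the acylglycerol kinase of the mitochondrial inner membrane, went from 43.9, 45.7 and 47.1 RPKM to 4.64, 3.70 and 4.18 RPKM, a log2 change of -3.17 ± 0.068 (SE; limma adjusted p = 2.19e-09). In these genes the 3 libraries of a group differed by a few RPKM while the groups stood much farther apart. EEFSEC, the elongation factor that delivers selenocysteine, stood at 1.66, 1.79 and 1.93 against 24.2, 23.6 and 24.4 RPKM, a log2 change of -3.16 ± 0.059 (SE; limma adjusted p = 1.28e-09). TAMM41, a mitochondrial enzyme on the way to cardiolipin, stood at 1.61, 0.98 and 0.79 against 17.4, 17.3 and 17.3 RPKM, a log2 change of -3.12 ± 0.12 (SE; limma adjusted p = 5.91e-08). BOLA3, which helps to place iron-sulphur clusters in mitochondria, fell from 81.8 ± 7.23 to 9.92 ± 0.968 RPKM (limma adjusted p = 6.03e-09).

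The remaining genes among the 15 largest falls were RASL10B, MFSD3, C11orf83, TTC5, TMEM109 and MRPL54, together with MT1X, MT2A and MT1F. RASL10B, a small Ras-like GTPase, fell from 24.6 ± 1.64 to 1.88 ± 0.376 RPKM and MFSD3, a member of a transporter superfamily, from 36.3 ± 2.17 to 3.26 ± 0.289 RPKM. C11orf83, an assembly factor of respiratory complex III, went from 19.2 ± 0.79 to 1.37 ± 0.395 RPKM and MRPL54, of the mitochondrial ribosome, from 60.5 ± 4.93 to 6.91 ± 1.57 RPKM. TTC5 and TMEM109 had ratios of means of 14.4 and 9.28. Their log2 changes lay between -3.13 (MFSD3) and -2.97 (MRPL54), apart from -3.16 for RASL10B. In full medium AGK stood at 45.9 ± 1.36 RPKM, COQ3 at 25.6 ± 2.72 RPKM and EEFSEC at 27.4 ± 1.05 RPKM. Of the 15 genes, MT2A and MT1F passed the test between repleted and full medium, MT1F with the reservation given above.

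Several of the largest rises were in genes that were nearly silent when zinc was present. Of these, CIB3, PRRG2 and ACSBG1 lay under 1 RPKM in every repleted and full library. They passed the filter only through the depleted libraries, so they could be tested only with higher depleted values. CIB3, of a family of calcium- and integrin-binding proteins, read 19.3, 19.9 and 20.0 RPKM in depleted libraries and 0.50, 0 and 0.17 RPKM in repleted ones, a log2 change of 4.10 ± 0.16 (SE; limma adjusted p = 5.6e-08). DHRS2, a short-chain dehydrogenase, read 99.6, 109.8 and 110.1 RPKM against 5.67, 6.38 and 5.59 RPKM, with a log2 change of 3.97 ± 0.082 (SE; limma adjusted p = 2.07e-09). PRRG2, a membrane protein with a vitamin K-dependent domain, read 18.5, 22.9 and 19.4 RPKM against 0.94, 0.45 and 0.43 RPKM, a change of 3.74 ± 0.15 (SE; limma adjusted p = 5.89e-08). For all 3 genes every depleted library lay far above every repleted one. PLTP, the phospholipid transfer protein of plasma, rose from 1.55, 0.79 and 1.43 RPKM to 12.1, 15.7 and 14.3 RPKM, a log2 change of 2.74 ± 0.15 (SE; limma adjusted p = 3.97e-07). ACSBG1, a long-chain acyl-CoA synthetase, rose from 0.61, 0.34 and 0.73 RPKM to 9.29, 10.3 and 8.77 RPKM, a log2 change of 2.75 ± 0.15 (SE; limma adjusted p = 3.03e-07). JOSD2, a deubiquitinase, was the most abundant of the 15 in depleted cells, at 162, 151 and 151 RPKM without zinc and 32.1, 26.1 and 26.4 RPKM with it, a change of 2.42 ± 0.083 (SE; limma adjusted p = 2.35e-08). C11orf54 went from 12.0 ± 1.47 to 78.1 ± 1.40 RPKM (limma adjusted p = 1.3e-07) and C5orf27 from 0.843 ± 0.095 to 9.85 ± 1.16 RPKM (limma adjusted p = 1.08e-07).

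Among the 15 largest rises were also short genes whose libraries spread widely. The pseudogene SNRPEP4 read 16, 16.1 and 12.8 RPKM in depleted libraries, and in repleted libraries 1 and 3 it read 0.01 and 0.09 RPKM against 7.13 RPKM in library 2. The mitochondrial tRNA genes MT-TI and MT-TQ, which overlap on opposite strands, rose from 13.7 ± 3.59 to 104 ± 8.40 RPKM and from 9.68 ± 6.71 to 57.9 ± 14.4 RPKM. Genes with clone names or low levels gave further large changes: the clone-named gene RP11-138I1.4 was listed at 0 in every depleted library against 15, 96.0 and 46.8 RPKM in repleted ones, and the small nucleolar RNA SNORD82 at 0 in every repleted library against 11.0, 6.56 and 5.05 RPKM. Over all tested genes, 44 were listed at 0 in the 3 repleted libraries and 35 in the 3 depleted ones.

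**Figure D3:**
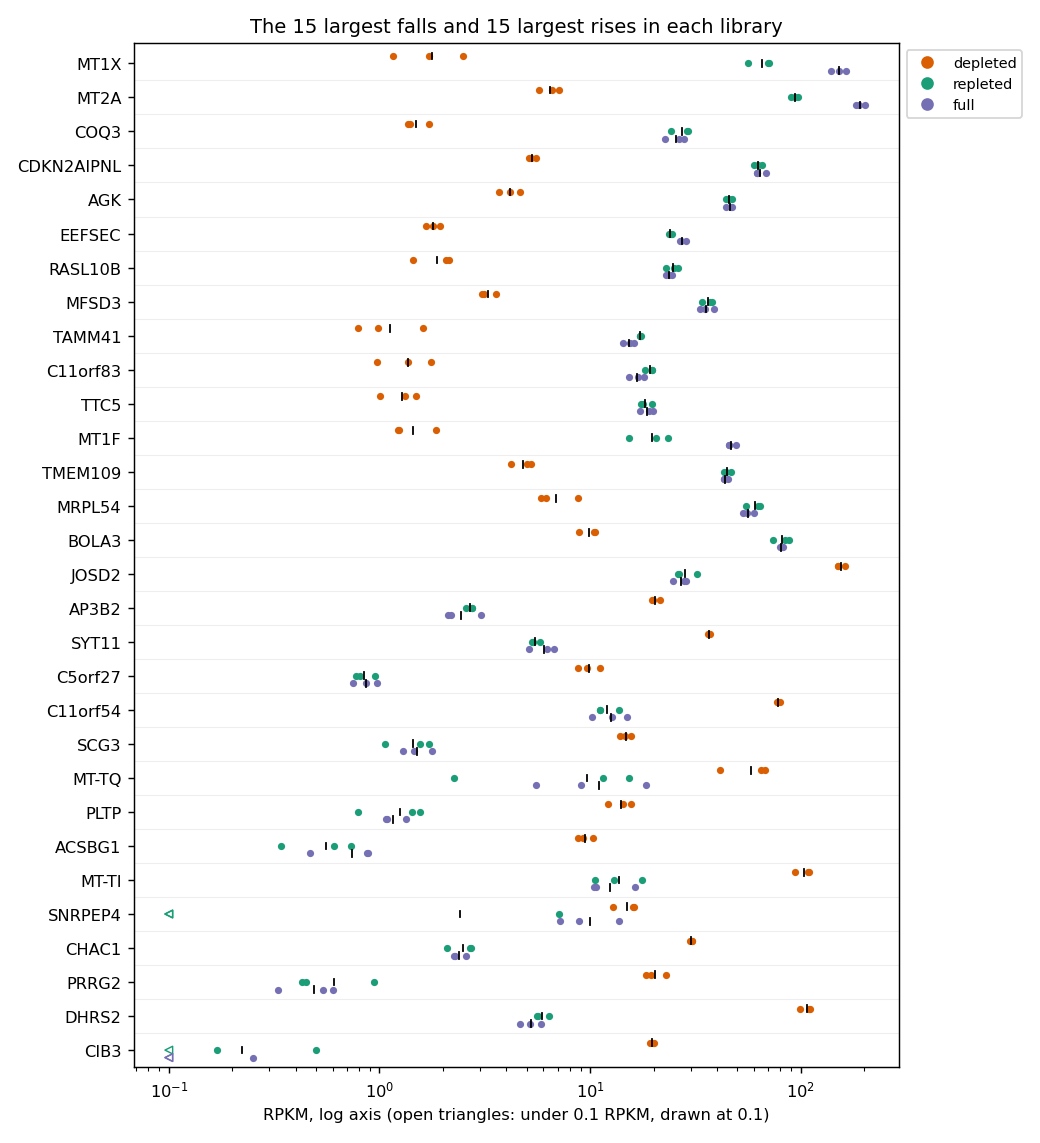
RPKM on a log axis for the genes with the 15 largest falls and 15 largest rises, 1 point per library, coloured by medium, with black ticks at group means and open triangles for values under 0.1 RPKM. Repleted and full libraries lie together for most genes and the depleted ones apart; MT1X, MT2A and MT1F are exceptions, with the repleted libraries between the other groups.

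Most genes listed as driven by ATF4 rose. The list was chosen with earlier results of these data known, so its counts describe the members and are no test. ATF4 is the transcription factor whose translation increases when cells lack amino acids or load their endoplasmic reticulum, and it binds amino acid response elements. Of 35 tested targets 30 rose, 15 of them by at least 2-fold, 2 fell and 3 did not pass, where 29.5% of all genes were called higher. The median log2 change was 0.95, against -0.01 for all genes. The ATF4 gene itself rose from 240.2, 227 and 228 RPKM to 314, 330.4 and 313 RPKM, a log2 change of 0.46 ± 0.035 (SE; limma adjusted p = 3.1e-06). The promoters of ASNS and CHAC1, which open this group, are shown with capitals for the metal response element and for the amino acid response element TGATGNAAN on either strand. They lie at chr7:97872409-97872658 (minus strand, the first of 2 starts listed) and chr15:40953221-40953470 (plus strand) on GRCh38.p14.

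ASNS: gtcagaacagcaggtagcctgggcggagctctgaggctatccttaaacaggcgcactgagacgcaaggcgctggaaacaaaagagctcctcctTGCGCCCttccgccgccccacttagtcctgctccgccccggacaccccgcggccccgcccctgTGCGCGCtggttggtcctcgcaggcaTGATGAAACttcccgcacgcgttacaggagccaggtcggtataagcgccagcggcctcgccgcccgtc
CHAC1: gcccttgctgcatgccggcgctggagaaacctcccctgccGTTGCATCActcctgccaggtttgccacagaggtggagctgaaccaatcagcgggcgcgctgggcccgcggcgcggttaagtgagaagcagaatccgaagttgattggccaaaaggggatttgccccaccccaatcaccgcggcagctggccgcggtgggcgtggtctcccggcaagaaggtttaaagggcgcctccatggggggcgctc

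Each held 1 match to the amino acid response element, on the strand shown in ASNS and on the other strand in CHAC1. ASNS also held 2 matches to the metal element. The amino acid element was found in 3.18% of all promoters in the table, in 1.35% of the matched tested genes, in 4.81% of those higher by at least 2-fold and in 0.75% of those lower by at least 2-fold. No match was found in this window for CTH, SESN2, TRIB3 or DDIT3.

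CHAC1, which degrades glutathione, measured 30.5, 29.9 and 30.3 RPKM without zinc and 2.72, 2.09 and 2.69 RPKM with it, a log2 change of 3.16 ± 0.089 (SE; limma adjusted p = 7.8e-09). DDIT3, the stress transcription factor CHOP, measured 25.9, 28.7 and 26.6 RPKM against 5.01, 5.16 and 4.37 RPKM, a log2 change of 2.26 ± 0.11 (SE; limma adjusted p = 1.59e-07). SLC7A11, the cystine importer, measured 18.5, 19.3 and 21.9 RPKM against 3.38, 3.79 and 3.88 RPKM, a log2 change of 2.16 ± 0.081 (SE; limma adjusted p = 4.16e-08). In all of these every depleted library lay several times above every repleted one. ASNS, asparagine synthetase, went from 54.3, 58.2 and 59.3 RPKM to 146, 156 and 152 RPKM, a log2 change of 1.39 ± 0.047 (SE; limma adjusted p = 2.35e-08). CTH, which makes cysteine from cystathionine, went from 7.24, 8.28 and 7.85 RPKM to 31.2, 35.4 and 32.2 RPKM, a log2 change of 1.95 ± 0.069 (SE; limma adjusted p = 2.95e-08). SESN2, a sensor of leucine, went from 17.2, 17.7 and 16.9 RPKM to 42.8, 46.6 and 45.6 RPKM, a log2 change of 1.33 ± 0.049 (SE; limma adjusted p = 3.82e-08).

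On the log2 scale the genes of the secreted proteins STC2 and GDF15 rose by 1.73 and 1.65, the glycine transporter gene SLC6A9 by 2.01, CEBPG, a partner of ATF4, by 1.26, and TRIB3, a pseudokinase that restrains it, by 1.14. DDIT4, an inhibitor of mTORC1, rose from 28.0 ± 1.12 to 50.7 ± 1.35 RPKM (limma adjusted p = 3.95e-07). The members that fell were PYCR1, an enzyme of proline synthesis, from 77.0, 82.0 and 75.8 RPKM to 25.5, 30.3 and 27.2 RPKM (log2 change -1.47 ± 0.061 (SE; limma adjusted p = 6.8e-08)), and ATF5, a transcription factor of mitochondrial stress, from 30.1, 29.1 and 30.8 RPKM to 13.9, 13.3 and 15.1 RPKM (log2 change -1.04 ± 0.057 (SE; limma adjusted p = 3.97e-07)). CLEC2D, ERO1L and ALDH1L2 did not pass, at 0.28, 0.06 and -0.06. Apart from DDIT4, the targets in this group of sentences, and DDIT3 and ATF4, were chosen after their values were seen.

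Cytosolic tRNA synthetases, several of which ATF4 also controls, were divided. Of 20 tested, 10 rose, none by 2-fold, 5 fell, 3 of them by at least 2-fold, and 5 did not pass, with a median of 0.15. Over all genes 29.5% were higher and 31.2% lower. VARS, the valine enzyme, fell from 61.1, 61.6 and 55.7 RPKM to 15.5, 15.1 and 15.3 RPKM, a log2 change of -1.89 ± 0.045 (SE; limma adjusted p = 3.24e-09). FARSB, a subunit of the phenylalanine enzyme, fell from 63.9 ± 4.70 to 28.6 ± 0.87 RPKM (limma adjusted p = 1.65e-07) and WARS, the tryptophan enzyme, from 80.1 ± 2.97 to 38.2 ± 0.191 RPKM (limma adjusted p = 1.75e-07). MARS and AARS, for methionine and alanine and chosen after their values were seen, fell with log2 changes of -0.61 and -0.57. CARS, for cysteine, and TARS, for threonine, rose by 0.79 and 0.54 on that scale.

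Lysosomal and autophagy genes rose broadly: 27 of 36 tested were higher, 7 by at least 2-fold, 4 were lower and 5 did not pass, with a median log2 change of 0.36. Of all genes 29.5% were higher, 3.25% by at least 2-fold. NPC1, the cholesterol exporter of the lysosome, rose from 25.6, 28.3 and 29.0 RPKM to 72.9, 79.2 and 83.4 RPKM, a log2 change of 1.47 ± 0.065 (SE; limma adjusted p = 1.01e-07). MAP1LC3B, a coat protein of autophagosomes, rose from 39.6, 40.6 and 39.4 RPKM to 84.7, 88.4 and 89.6 RPKM, a log2 change of 1.12 ± 0.040 (SE; limma adjusted p = 2.88e-08). The protease CTSD rose from 79.5 ± 2.66 to 168 ± 0.728 RPKM (limma adjusted p = 1.07e-08), the galactosidase GLA from 59.3 ± 1.21 to 114 ± 0.628 RPKM and the membrane protein LAMP1 from 49.0 ± 1.17 to 87.5 ± 0.352 RPKM. The genes that fell, FNIP2, ATG9A, CTSB and GABARAPL2, had log2 changes of -0.33, -0.32, -0.27 and -0.12; they and NPC1 were chosen after their values were seen, the GABARAPL2 call was lost under median centring (adjusted p = 0.10), and the ATG9A call in 5 of 15 alternative settings, including without depleted library 2 (adjusted p = 0.0715) or repleted library 2 (adjusted p = 0.0707).

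Of 27 genes of the unfolded protein response of the endoplasmic reticulum, 16 were higher and 6 lower, where 29.5% of all genes were higher and 31.2% lower, with none higher by 2-fold and a median of 0.17. DERL3, a degradation factor chosen after its values were seen, had the largest change, a fall from 26.0 ± 3.55 to 11.4 ± 2.16 RPKM (limma adjusted p = 7.94e-05). MANF, a secreted chaperone, rose from 70.1 ± 4.25 to 118 ± 7.51 RPKM (limma adjusted p = 4.63e-06), CRELD2 from 42.5 ± 5.30 to 74.2 ± 3.84 RPKM and XBP1, the factor spliced by IRE1, from 48.1 ± 0.618 to 70.0 ± 3.62 RPKM. HSP90B1, the chaperone of that compartment, fell from 291 ± 5.64 to 244 ± 5.53 RPKM (limma adjusted p = 5.35e-05). Heat shock genes were 9 higher and 9 lower of 24, beside 29.5% and 31.2% of all genes, with a median of -0.01. DNAJB1, a co-chaperone, rose from 58.8, 57.9 and 55.5 RPKM to 149.5, 149 and 154 RPKM, a log2 change of 1.38 ± 0.037 (SE; limma adjusted p = 6.46e-09), while HSPB1, a small heat shock protein, fell from 136, 117 and 112 RPKM to 52.6, 47.5 and 49.8 RPKM, a log2 change of -1.26 ± 0.068 (SE; limma adjusted p = 3.27e-07). HSP90AB1, the constitutive cytosolic HSP90, fell from 942 ± 13.1 to 521 ± 6.61 RPKM and the mitochondrial chaperonin HSPD1 from 631 ± 16.5 to 417 ± 4.68 RPKM.

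Targets of p53 were mostly higher, 15 of 24 against 4 lower and 5 that did not pass, where 29.5% of all genes were higher, with a median of 0.33; HEK293 cells carry adenoviral E1 proteins, which bind p53. TP53INP1, a cofactor in stress and autophagy, read 8.40, 8.47 and 8.37 RPKM in depleted and 1.99, 2.07 and 1.98 RPKM in repleted libraries, a log2 change of 1.64 ± 0.083 (SE; limma adjusted p = 2.2e-07). GADD45A, a growth arrest gene that stress also induces without p53, read 106, 109 and 105 RPKM against 51.0, 50.2 and 45.6 RPKM, a log2 change of 1.11 ± 0.048 (SE; limma adjusted p = 8.5e-08). BAX, which opens the mitochondrial outer membrane in apoptosis, rose from 205 ± 13.3 to 393 ± 10.2 RPKM (limma adjusted p = 1.35e-07), and the death receptor gene TNFRSF10B from 42.5 ± 1.57 to 58.5 ± 1.00 RPKM (limma adjusted p = 1.03e-05). CDKN1A, the p21 inhibitor and best known p53 target, did not pass, at 80.3, 86.5 and 85.5 RPKM against 79.3, 77.6 and 83.7 RPKM with overlapping groups (log2 change 0.07 ± 0.043 (SE; limma adjusted p = 0.197)). TP53I3, BTG2, TRIAP1 and SESN1 fell, with log2 changes of -0.93, -0.70, -0.39 and -0.26. These 4, TNFRSF10B and CDKN1A were chosen after their values were seen.

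Targets of NRF2, the factor that answers oxidants, rose in 10 of 20 cases and fell in 5, with a median of 0.16. Over all genes 29.5% were higher and 31.2% lower. SRXN1, which repairs oxidised peroxiredoxins, rose from 14.2, 12.6 and 12.9 RPKM to 38.5, 40.3 and 39.7 RPKM, a log2 change of 1.51 ± 0.054 (SE; limma adjusted p = 2.88e-08). TXNRD1, cytosolic thioredoxin reductase, rose from 96.2 ± 5.53 to 172 ± 0.879 RPKM (limma adjusted p = 2.37e-07) and MAFG, a partner of NRF2, from 12.7 ± 0.265 to 29.1 ± 2.37 RPKM (limma adjusted p = 3.52e-07). The quinone reductase gene NQO1 went the other way, from 11.7, 12.2 and 12.4 RPKM to 8.41, 7.44 and 7.21 RPKM, a log2 change of -0.59 ± 0.068 (SE; limma adjusted p = 5.17e-05). The pentose phosphate genes PGD, TALDO1 and TKT also fell, with log2 changes of -0.65, -0.54 and -0.21; NQO1, TALDO1 and TKT were chosen after their values were seen.

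HMOX1, the haem oxygenase that both NRF2 and metals induce, was lower in depleted cells by a small amount, at 32.5, 33.3 and 35.3 RPKM against 38.4, 37.6 and 39.2 RPKM. Its log2 change was -0.18 ± 0.047 (SE; limma adjusted p = 0.00728), and under median centring of the libraries the call was lost (adjusted p = 0.0506). HMOX1 also differed between repleted and full medium, 38.4 ± 0.76 against 53 ± 2.32 RPKM, a change of -0.45 (limma adjusted p = 0.0282). FTL, the light chain of the iron store ferritin, had its lowest level in repleted cells, with 980.2, 1015 and 1012 RPKM in depleted, 785, 734 and 733 RPKM in repleted and 891, 915 and 926 RPKM in full libraries. The depleted minus repleted change of FTL was 0.42 ± 0.031 (SE; limma adjusted p = 2.77e-06), and the repleted minus full change -0.28 (limma adjusted p = 0.0282). The heavy chain gene FTH1 did not pass, at 708 ± 14.6 against 693 ± 23.5 RPKM (limma adjusted p = 0.403). Both ferritin genes have many processed pseudogenes, so their reads are uncertain.

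Iron handling genes moved both ways, 6 higher and 5 lower of 16, beside 29.5% and 31.2% of all genes. Their median was -0.02. STEAP3, the ferrireductase of endosomes, fell most, from 11.0, 13.2 and 13.0 RPKM to 4.01, 3.78 and 4.05 RPKM, a log2 change of -1.43 ± 0.075 (SE; limma adjusted p = 2.88e-07). TFRC, the transferrin receptor, fell from 31.5 ± 2.37 to 21.0 ± 1.6 RPKM (limma adjusted p = 0.00101), SLC11A2, the importer DMT1, from 12.9 ± 0.481 to 8.53 ± 1.17 RPKM, and SLC40A1, the iron exporter, from 1.76 ± 0.28 to 0.437 ± 0.326 RPKM. NCOA4, which carries ferritin to the lysosome, rose from 46.7 ± 3.04 to 70.5 ± 0.691 RPKM (limma adjusted p = 4.32e-06). Copper handling genes also moved both ways, 4 higher and 5 lower of 12, beside the same shares of all genes. ATP7A, the copper exporter, rose from 4.19 ± 0.311 to 7.26 ± 0.087 RPKM, SOD1, the copper and zinc superoxide dismutase, from 315 ± 3.48 to 394 ± 15.4 RPKM, and COMMD1, a copper-handling scaffold, fell from 23.5 ± 0.387 to 10.9 ± 0.904 RPKM. HMOX1, FTL, FTH1, TFRC and SLC40A1 were chosen after their values were seen.

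**Figure D4:**
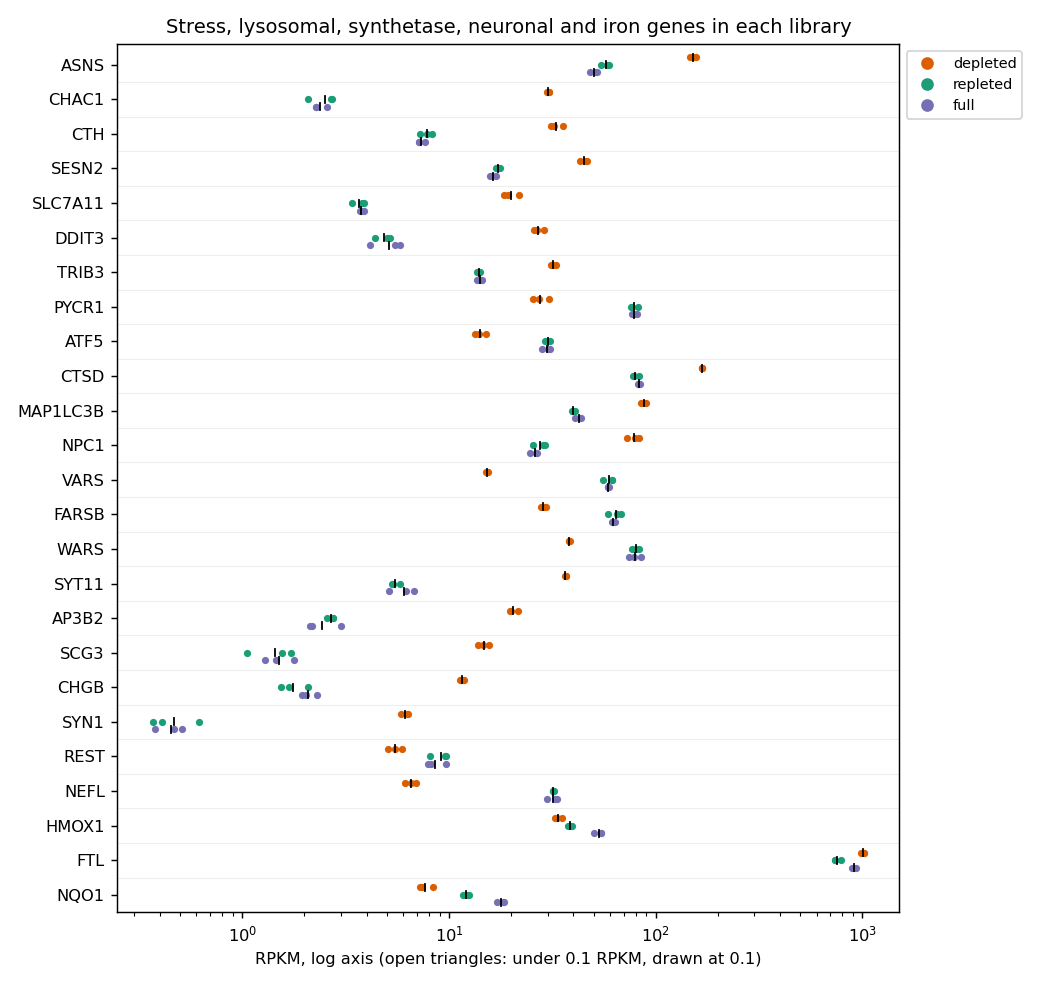
RPKM on a log axis for genes of the ATF4, lysosomal, tRNA synthetase, neuronal, NRF2 and iron groups, 1 point per library, coloured by medium, with black ticks at group means. The depleted libraries lie above the others for CHAC1, DDIT3, SLC7A11, SYT11 and AP3B2 and below them for VARS, NEFL and PYCR1, and for FTL the repleted libraries lie lowest.

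Neuronal genes of the kind that REST, a zinc finger repressor, keeps off in other tissues moved by large factors. The list used covers REST and neuronal genes, and 19 of its members were tested. Among them 11 rose, 8 by at least 2-fold (29.5% and 3.25% of all genes), 3 fell and 5 did not pass. The median was 0.37. SYN1 and SNAP25 lay under 1 RPKM in every repleted and full library. They passed the filter only through the depleted libraries, so they could enter the count only with higher depleted values. REST itself fell, from 9.63, 9.61 and 8.08 RPKM to 5.48, 5.05 and 5.90 RPKM, a log2 change of -0.64 ± 0.098 (SE; limma adjusted p = 0.000343). SCG3, a granin of secretory granules, read 13.8, 15.7 and 14.6 RPKM without zinc and 1.72, 1.06 and 1.56 RPKM with it, a log2 change of 2.69 ± 0.13 (SE; limma adjusted p = 1.42e-07). SYT11, a synaptotagmin, read 36.6, 36.2 and 36.9 RPKM against 5.77, 5.38 and 5.29 RPKM, a log2 change of 2.54 ± 0.086 (SE; limma adjusted p = 2.32e-08). AP3B2, the neuronal subunit of an adaptor complex, read 19.9, 21.5 and 19.8 RPKM against 2.75, 2.57 and 2.74 RPKM, a log2 change of 2.54 ± 0.10 (SE; limma adjusted p = 6.73e-08). In each the 3 depleted libraries stood together, well above the repleted ones. The granin gene CHGB rose from 1.77 ± 0.273 to 11.6 ± 0.239 RPKM (limma adjusted p = 1.05e-07), CHGA from 0.983 ± 0.52 to 8.89 ± 0.31 RPKM, SYN1 from 0.467 ± 0.134 to 6.13 ± 0.256 RPKM, SNAP25 from 0.773 ± 0.11 to 6.20 ± 0.484 RPKM and SYP from 7.15 ± 1.48 to 28.6 ± 0.598 RPKM. The neurofilament gene NEFL, which HEK293 cells express, went the other way, from 31.7, 32.0 and 32.1 RPKM to 6.14, 6.89 and 6.57 RPKM, a log2 change of -2.13 ± 0.057 (SE; limma adjusted p = 6.46e-09). NEFM was also called lower (-0.46, limma adjusted p = 0.0313), with overlapping libraries and a call that was lost in most alternative settings (adjusted p = 0.142 under quantile normalization). REST, CHGA, SYN1, SNAP25, SYP and NEFM were chosen after their values were seen.

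Extracellular matrix genes fell, 18 lower and 3 higher of 25 tested, where 31.2% of all genes were lower, with a median of -0.48. VCAN, a large proteoglycan, read 6.95, 7.95 and 9.30 RPKM in depleted and 28.1, 32.9 and 32.4 RPKM in repleted libraries, a log2 change of -1.83 ± 0.10 (SE; limma adjusted p = 4e-07). LAMB1, a laminin chain, read 5.57, 5.05 and 5.27 RPKM against 14.1, 16.9 and 14.3 RPKM, a log2 change of -1.35 ± 0.075 (SE; limma adjusted p = 4.25e-07). SPARC, a collagen-binding glycoprotein, was the most precise of these, at 60.5, 65.9 and 63.7 RPKM against 135, 133 and 136 RPKM (log2 change -1.08 ± 0.035 (SE; limma adjusted p = 1.89e-08)). The basement membrane collagens COL4A5 and COL4A1 fell, with log2 changes of -0.77 and -0.70. TNC, FN1 and COL5A2, chosen after their values were seen, rose by 0.47, 0.34 and 0.37 on that scale, and the COL5A2 call was lost in 6 of 15 alternative settings, including without depleted library 1 (adjusted p = 0.0734) or 3 (0.0789) and without repleted library 3 (0.0893). COL1A1 and LAMA1, also chosen after their values were seen, fell with log2 changes of -1.02 and -1.01. The fibroblast marker LUM, itself a matrix gene, was lower too, and whether its fall bears on these genes was not tested.

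Ribosome biogenesis genes were lower in 20 of 29 cases and higher in 3, where 31.2% of all genes were lower, with a median of -0.24. WDR75, a factor of the small subunit processome, fell from 33.2, 32.5 and 34.5 RPKM to 9.98, 9.92 and 9.59 RPKM, a log2 change of -1.67 ± 0.044 (SE; limma adjusted p = 6.11e-09). PES1, needed for the large subunit, fell from 86.0, 84.7 and 83.4 RPKM to 32.7, 35.7 and 34.5 RPKM, a log2 change of -1.28 ± 0.047 (SE; limma adjusted p = 3.75e-08). NPM1, the abundant nucleolar chaperone, fell from 2322 ± 69.2 to 1485 ± 33.1 RPKM (limma adjusted p = 1.08e-07), and MYC, which drives many of these genes, from 43.5 ± 1.12 to 23.6 ± 0.244 RPKM (limma adjusted p = 5.1e-07). UTP15, RRP1B and UTP20, chosen after their values were seen, rose by 0.34, 0.13 and 0.18 on the log2 scale; each of these calls was lost in at least 1 alternative setting. Ribosomal protein genes did not follow: 47 of 85 were higher and 14 lower, beside 29.5% and 31.2% of all genes, with a median of 0.09. RPL21 rose from 62.3 ± 3.32 to 178 ± 3.24 RPKM and RPS26 from 28.6 ± 2.62 to 69.7 ± 2.02 RPKM, while RPL10 fell from 1537 ± 18.3 to 908 ± 35.7 RPKM. These genes have many near-identical pseudogenes, which makes their reads uncertain.

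Glycolysis genes were lower in 12 of 19 cases and higher in 3, again beside 31.2% of all genes lower, with a median of -0.25. SLC2A3, a glucose importer, fell most, from 7.99, 8.86 and 9.28 RPKM to 1.63, 2.62 and 1.65 RPKM, a log2 change of -1.72 ± 0.13 (SE; limma adjusted p = 3.26e-06). PKM, pyruvate kinase, fell from 629, 616 and 632 RPKM to 383, 382 and 388 RPKM, and the small spread within groups gave a log2 change of -0.70 ± 0.021 (SE; limma adjusted p = 1.18e-08). ENO1, enolase, fell from 1663 ± 13.2 to 1166 ± 13.2 RPKM (limma adjusted p = 2.88e-08). The importer SLC2A1, with HK2 and ALDOA, rose, by 0.78, 0.36 and 0.18 on the log2 scale; these 3 were chosen after their values were seen. VEGFA, the angiogenic factor that both hypoxia and ATF4 induce, rose from 18.3, 14.3 and 12.7 RPKM to 42.7, 42.2 and 43.0 RPKM. Its log2 change was 1.45 ± 0.11 SE (limma adjusted p = 2.5e-06). The hypoxia list that holds it had 9 higher and 8 lower of 24, beside 29.5% and 31.2% of all genes.

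Cell cycle genes moved in both directions, where 29.5% of all genes were higher and 31.2% lower. Of 32 S phase genes 17 rose and 6 fell, none by 2-fold, with a median of 0.14. The ribonucleotide reductase genes RRM1 and RRM2 rose by 0.45 and 0.52 on the log2 scale, and CDT1, a licensing factor, by 0.62. The helicase genes MCM3 and MCM5 fell, both with a log2 change of -0.43. Of 32 mitotic genes 14 fell, 2 of them by at least 2-fold, and 10 rose, with a median of -0.08. BIRC5, the survivin subunit of the chromosomal passenger complex, fell from 126, 122 and 120.4 RPKM to 52.7, 53.2 and 46.8 RPKM, a log2 change of -1.25 ± 0.051 (SE; limma adjusted p = 6.36e-08). PLK1, a mitotic kinase, fell from 82.1, 79.7 and 87.5 RPKM to 35.7, 38.2 and 37.8 RPKM, a log2 change of -1.14 ± 0.044 (SE; limma adjusted p = 4.8e-08). UBE2C, of the anaphase machinery, rose from 118 ± 1.11 to 165 ± 6.39 RPKM (limma adjusted p = 4.58e-06). Immediate early genes were higher in 14 of 25 cases, beside 29.5% of all genes, and lower in 4, with a median of 0.48. KLF10 rose from 4.12 ± 0.10 to 11.3 ± 0.763 RPKM, IER3 from 3.83 ± 0.556 to 9.18 ± 0.231 RPKM and JUND from 51.8 ± 4.20 to 88.0 ± 0.66 RPKM, all transcription factors or regulators induced by growth signals and stress. MYC, FOSL2, DUSP5 and DUSP4 fell, with log2 changes of -0.86, -0.53, -0.28 and -0.34; the last 3 were chosen after their values were seen, the DUSP4 call was lost in 12 of 15 alternative settings, and the DUSP5 call under quantile normalization (adjusted p = 0.191).

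**Figure D5:**
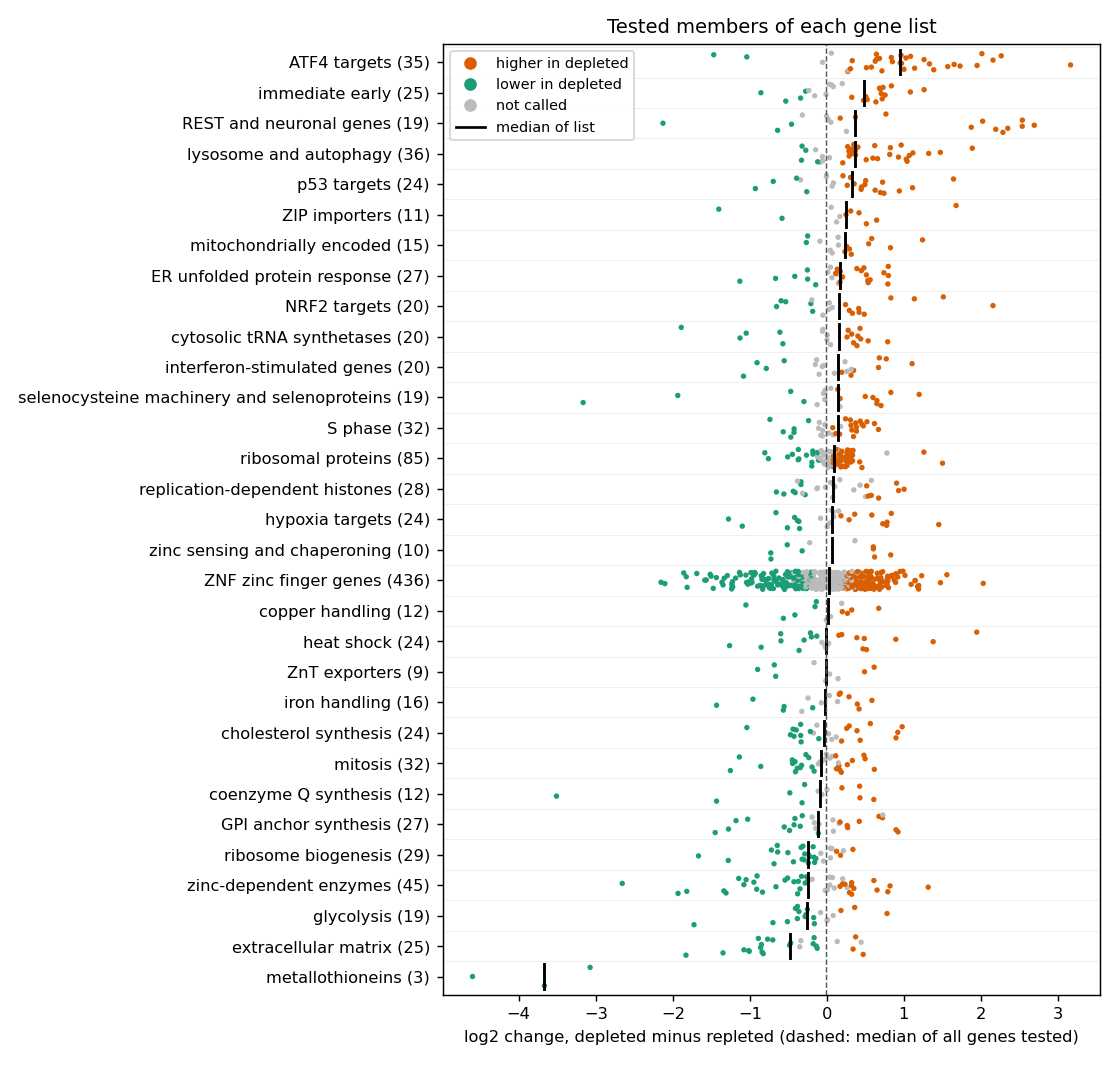
Log2 change, depleted minus repleted (x axis), of every tested member of each gene list (y axis, number tested in brackets); points are genes coloured by call, black bars are list medians and the dashed line is the median of all tested genes. Metallothioneins (-3.67) and extracellular matrix genes (-0.48) have the lowest medians, and ATF4 targets (0.95) and immediate early genes (0.48) the highest.

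Within the coenzyme Q pathway the fall of COQ3 was not shared by all members. Of 12 tested, 5 fell and 4 rose, beside 31.2% and 29.5% of all genes. COQ5, the other methyltransferase, fell from 41.9, 33.9 and 40.4 RPKM to 13.2, 15.2 and 12.7 RPKM, a log2 change of -1.43 ± 0.099 (SE; limma adjusted p = 1.75e-06). PDSS1, COQ9 and COQ2 fell, with log2 changes of -0.48, -0.32 and -0.29, and COQ10B, COQ6, COQ7 and COQ4 rose by 0.61, 0.43, 0.42 and 0.20. Selenocysteine genes also moved both ways, 9 higher and 4 lower of 19, where 29.5% of all genes were higher and 31.2% lower. Beside the fall of EEFSEC, SECISBP2, which reads the selenocysteine element of the mRNA, rose from 19.9, 19.9 and 18.8 RPKM to 45.3, 44.2 and 48.6 RPKM, a log2 change of 1.2 ± 0.074 (SE; limma adjusted p = 8.37e-07). Of the selenoproteins, mitochondrial TXNRD2 fell from 26.9, 27.6 and 29.4 RPKM to 6.97, 6.17 and 6.57 RPKM, a log2 change of -1.94 ± 0.064 (SE; limma adjusted p = 1.98e-08), and GPX4, which reduces lipid peroxides, rose from 227 ± 6.80 to 357 ± 3.49 RPKM (limma adjusted p = 1.38e-07). SELM and SEPN1 fell, with log2 changes of -0.47 and -0.30. PDSS1, COQ9, COQ2, COQ4, SELM and SEPN1 were chosen after their values were seen.

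GPI anchor genes, whose pathway includes zinc-dependent steps, were lower in 11 of 27 cases and higher in 8, near the 31.2% and 29.5% of all genes, with a median of -0.11. PIGQ fell from 24.0 ± 4.76 to 8.09 ± 1.14 RPKM, PIGU from 16.1 ± 1.10 to 6.08 ± 1.04 RPKM and PIGO from 9.25 ± 0.452 to 3.54 ± 0.549 RPKM, while PIGH rose from 29.3 ± 0.998 to 55.4 ± 0.501 RPKM. Cholesterol synthesis genes were lower in 10 of 24 cases and higher in 9, beside the same shares of all genes, with a median of -0.04. PMVK, a kinase of the mevalonate pathway, fell from 26.6 ± 0.884 to 12.4 ± 0.932 RPKM (limma adjusted p = 4.42e-07) and SC5D, a late desaturase, rose from 58.3 ± 1.93 to 109 ± 0.856 RPKM (limma adjusted p = 4.44e-08). Of 20 interferon-stimulated genes 7 rose and 4 fell, beside 29.5% and 31.2% of all genes. Without depleted library 1 or 3 the number that rose was 4. IFITM2, which blocks virus entry, fell from 27.6 ± 1.11 to 14.3 ± 2.05 RPKM, and ISG15, a ubiquitin-like modifier, rose from 3.61 ± 0.144 to 6.88 ± 0.438 RPKM.

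Mitochondrially encoded genes took 1.83% to 1.95% of the length-weighted signal in depleted libraries and 1.39% to 1.5% in repleted ones, with no overlap. Of 15 tested, 8 rose and 2 fell, beside 29.5% and 31.2% of all genes. The large ribosomal RNA MT-RNR2 read 1320.2, 1221 and 1171 RPKM without zinc and 498, 513 and 557 RPKM with it, a log2 change of 1.24 ± 0.071 (SE; limma adjusted p = 4.91e-07). MT-CO1, a subunit of cytochrome oxidase, read 3537, 3423 and 3389 RPKM against 1979.5, 2033 and 1831 RPKM, a log2 change of 0.83 ± 0.058 (SE; limma adjusted p = 1.83e-06). MT-ATP6 and MT-ATP8, which share a transcript, fell, with log2 changes of -0.27 and -0.25. Replication-dependent histone genes, whose transcripts mostly lack a poly(A) tail and are poorly captured by this preparation, were tested in 28 cases, with 7 higher and 7 lower; with single libraries left out the number lower was 3 to 8.

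The share of genes called was larger at higher levels. Of genes averaging under 2 RPKM 37.8% were called, of those at 2 to 10 RPKM 57.4%, at 10 to 50 RPKM 69.5%, and at 50 RPKM and over 74.9%. The median standard error of the log2 change went from 0.18 in the lowest band to 0.04 in the highest, so a small change in a low gene was not detectable at this depth. Protein-coding genes were called in 66.3% of 12892 cases and long intergenic RNAs in 45.5% of 622. Antisense genes, whose reads cannot be told from those of the overlapping gene unless the counting used strand, were called in 41.0% of 765 cases, and microRNA genes in 9.66% of 238. Among protein-coding genes, 910 fell by at least 2-fold and 353 rose by as much.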

How the data were processed

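RNA from 9 libraries was enriched for poly(A) RNA and sequenced single-end, per the labels' protocols. The authors deposited 1 table of log2(RPKM + 1) per gene and library, per the file headers and the values, which are whole multiples of 0.01 RPKM. The submitters' processing notes list BWA 0.7.12-r1039, bedtools 2.25.0.3, RSEM 1.2.6, Bowtie 1.0.1 and the builds hg19 and GRCh37, with no role. Whether counting used strand is not given in the sources used here. A further 20320 rows of the table were blank and left out, and 0 columns were of unknown sample.

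Genes with 1 RPKM or more in 3 or more libraries were fitted with limma 3.58.1 (R 4.3.3) on the deposited log2 scale, which has a pseudocount of 1 RPKM, with a trend in the variance, over all 9 libraries and with no further covariate. The contrast was depleted minus repleted, with Benjamini-Hochberg adjustment over all 15774 genes and a threshold of 0.05. The fit was first tested on simulated data. Tables and figures were made with Python 3.11.15, pandas 2.3.3 and matplotlib 3.10.9. Read depth was estimated from the spacing of low RPKM values; only 48.8% to 55.3% of those values came out within 0.1 of a whole read, so no count test was run. Promoters came from RefSeq's GRCh38.p14 entries, for 45 of 56 genes looked up and 9964 tested genes. Matching was by Ensembl identifier, and by symbol where that gave none.

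Named genes were the 15 largest rises and falls at a mean of 5 RPKM or more without overlap between groups, every tested metallothionein, SLC30 and SLC39 gene, up to 5 members of each list by smallest p, and genes stated to have been chosen after their values were seen. The members and lists were chosen with earlier results of these data known. Alternatives were another pseudocount, 2 other filters, the 6 compared libraries alone, a replicate block, median centring, quantile normalization, a threshold of 0.01, each of the 6 compared libraries left out, and repleted library 3 as the only repleted one. For repleted against full medium, leaving out each full library was added after seeing the data. 1 gene counted with its list is not reported here by itself.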

Additional observations from a re-analysis of the deposited data

How the results depend on the processing

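The number of genes called between depleted and repleted medium stayed within 1.5 times of 9574 in every alternative tried, from 7541 at a threshold of 0.01 to 9558 under median centring, and was 7730 with repleted library 3 as the only repleted one. Higher genes made up 48.6% of the calls, and 54% under median centring. With no filter 9483 of 36433 genes were called. Leaving out 1 library at a time gave 8784 to 9087 calls, with 4253 to 4470 higher and 4512 to 4733 lower. The libraries share replicate numbers, but same-numbered depleted and repleted libraries had residual correlations of -0.0061 to 0.0726, so the numbers were not taken as pairs; the replicate block gave 9472 calls, 4616 higher and 4856 lower. The count between repleted and full medium, 5, was 3 with a pseudocount of 0.1, 2 with no filter, 2 with the replicate block, 1 at a threshold of 0.01, 7 under median centring, 6 under quantile normalization, 1 to 6 without 1 depleted or repleted library and 1 to 9 without 1 full library, and the cause was not tested.

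For 271 genes looked at singly, 3990 of 4060 refits kept the side of the threshold, 61 lost the call and 8 gained it. A change of direction was counted only where either fit was called, so the 3990 can hold turned signs in uncalled genes. FTH1, not called at 0.03, reversed to -0.12 under quantile normalization (limma adjusted p = 0.0136). The median log2 changes of the ZnT exporters, cholesterol synthesis, iron handling and heat shock lists were near 0 and turned positive under median centring, at 0.03, 0.01, 0.03 and 0.04. That of the zinc sensing list turned to -0.09 without repleted library 3. Genes under 2 RPKM had a median standard error of 0.18 on the log2 scale, which limits what could be called there.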
